A study of Mus musculus with 29 samples.

Results

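Genes that build the apical side of neural stem cells were followed through mouse cortex lacking BAF155 and BAF170, the scaffold subunits of the chromatin-remodeling BAF complex encoded by Smarcc1 and Smarcc2. The 10 members, given by symbol, are 2 cadherins (Cdh1, Cdh2), 3 genes of the Crumbs complex (Crb1, Crb2, Mpp5), 3 of the Par complex (Pard3, Pard6b, Prkci) and 2 of the tight junction (Ocln, Tjp1). They are 10 of the 36831 genes listed in both RNA-seq count tables. Cdh1 fell below the minimum of reads set for the main test, and the other 9 were tested.

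RNA from E17.5 embryonic cortex was sequenced in 2 experiments, and the histone mark H3K27me3 was profiled by ChIP-seq. In the untreated experiment, 4 libraries titled C and 3 titled M came from C57BL/6J embryos. Their genotype field reads BAF dcKO_hGFAP-Cre for both letters, so C was taken as control and M as dcKO from the titles. In the treated experiment, 4 wild type libraries after vehicle, 4 dcKO libraries after vehicle and 4 dcKO libraries after a Wnt inhibitor were measured, again on C57BL/6J. The dcKO carries floxed BAF155 and floxed BAF170 alleles with the hGFAP-Cre transgene, which recombines first in the medial and later in the dorsal and lateral pallium, so neurons born earlier and cells outside this lineage keep both genes. The inhibitor, ICG-001, was given to the pregnant dams. The H3K27me3 libraries are 4 titled C and 4 titled K, all labelled BAF dcKO_hGFAP-Cre as well. RNA libraries held 11946658 to 28391046 counts. The methods speak of biological replicates, but the labels tie no library to an animal or litter, so p-values measure the spread between these libraries, which may be partly technical.

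Neuroepithelial cells, the earliest neural stem cells, form a polarized sheet joined near the ventricle. Tight junctions, which hold the transmembrane protein occludin (Ocln), are lost from this sheet around neural tube closure, while the scaffold ZO-1 (Tjp1) stays on at the adherens junctions of radial glia. N-cadherin (Cdh2) replaces E-cadherin (Cdh1) in the same period. The Crumbs and Par complexes mark the apical domain, and their proteins are commonly used to read how epithelial a progenitor is.

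The deleted genes did not follow the labels in every library. Smarcc1, as counts scaled to library size (CPM), lay between 244.5 and 298.8 in the 8 control libraries and between 128 and 140 in 6 of the 11 dcKO libraries. The library labelled M 2 had 245.5, the library labelled dcKO vehicle 2 had 242.5, and the libraries labelled inhibitor 1 and inhibitor 2 had 214 and 252. Inhibitor 4 lay between, at 173. Smarcc2 was 398 to 439 CPM in the same 6 libraries, 654 to 834 in the controls and 644 to 695 in the 4 others, and inhibitor 4, at 585.7, was closer to the controls. These 4 libraries, at or near the control range, are called control-level here. They are kept in the values, and calls that change without them are given both ways. Markers of cortex were present throughout, with sums of 4518 to 6208 CPM over 6 cortical neuron genes and 1297 to 1788 CPM over 8 radial glia genes. The libraries of both experiments also resembled each other by number. Over the genes tested in both, every untreated library deviated from its group mean most like the vehicle library of the same letter or genotype and number, with correlations of 0.18 to 0.57 for C against wild type and 0.57 to 0.85 for M against dcKO vehicle, while pairs with different numbers reached at most 0.20 and 0.52. The labels do not say whether both experiments share animals, so the vehicle libraries are not counted as a repeat of the untreated experiment.

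In untreated C cortex, Cdh2 had the highest level per kilobase of exon, with 45.7 ± 3.06 CPM per kb (SD, n = 4). Prkci followed with 16.02 ± 1.02 and Tjp1 with 14.2 ± 0.662. Mpp5, Pard3 and Pard6b formed a middle group at 3.39 ± 0.106, 3.33 ± 0.139 and 3.17 ± 0.0689 CPM per kb. Mpp5 and Pard3 lay within each other's spread there. Crb2 had 1.98 ± 0.341 and Ocln 1.63 ± 0.238, and their libraries overlapped, at 1.64 to 2.36 and 1.32 to 1.89. Crb1 had 0.218 ± 0.0865 and Cdh1 0.0253 ± 0.0126 CPM per kb. N-cadherin was thus abundant and E-cadherin close to absent, with 0 to 4 counts of Cdh1 in each library outside the inhibitor group. These levels use the exon length of the annotation and take no account of which isoforms are used.

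**Figure D1:**
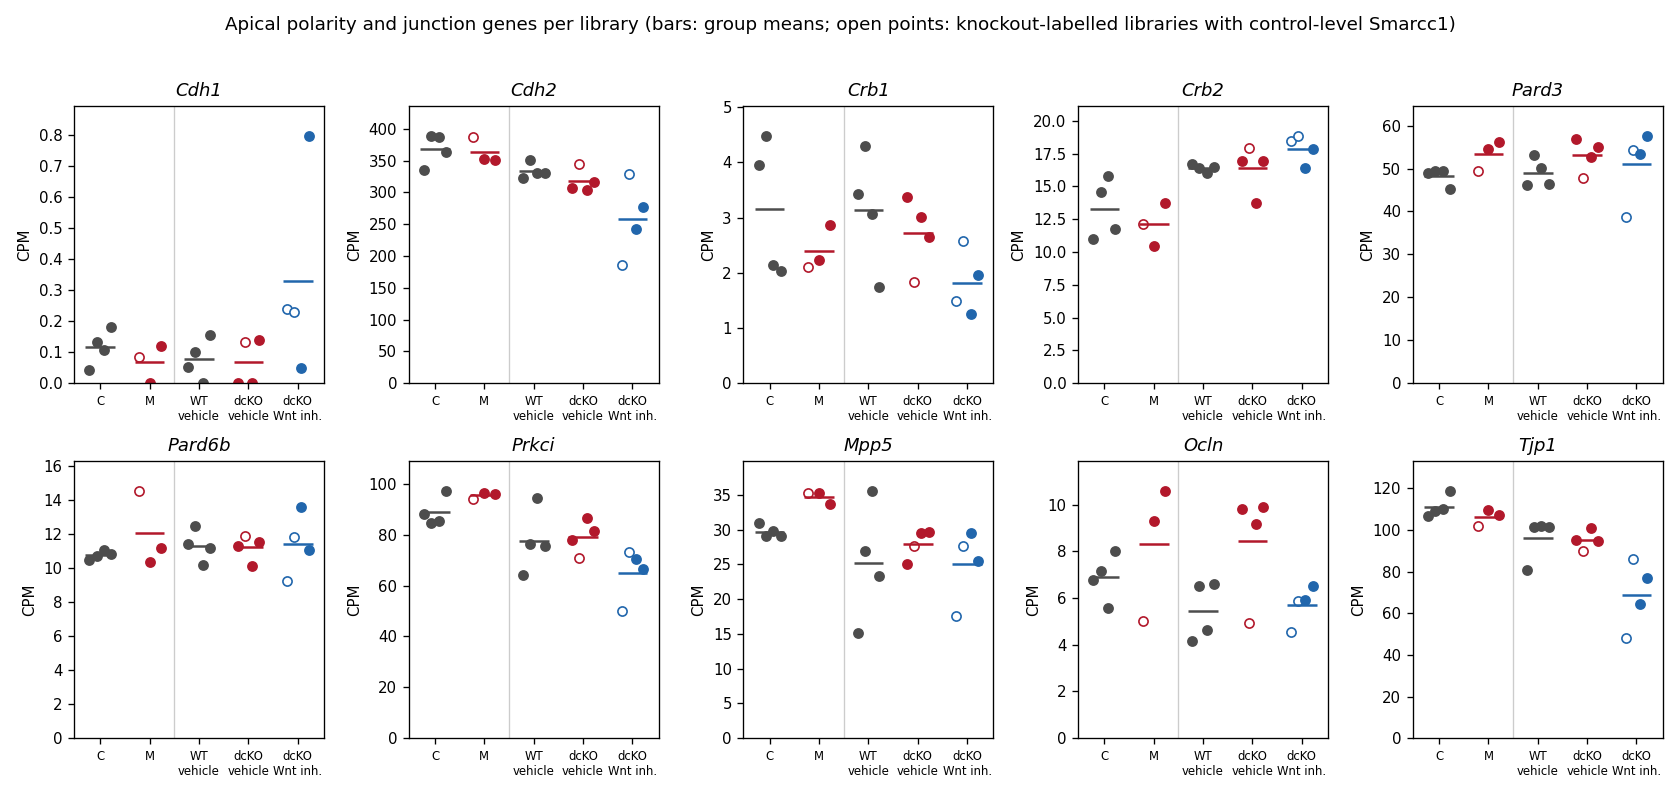
Level of each of the 10 genes in each RNA library in CPM, with 1 panel per gene and an axis from 0. Filled and open points are libraries, open points being the dcKO libraries with control-level Smarcc1, and horizontal bars are group means. A vertical line separates the untreated from the treated experiment, whose tables were scaled separately. Ocln splits the vehicle dcKO group into 3 libraries at 9.15 to 9.88 and 1 at 4.94.

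Across the 4 comparisons, no member was called at an adjusted p under 0.05 with all libraries (edgeR quasi-likelihood test, Benjamini-Hochberg over all genes tested). The background was as low. The test called 0.00634% of all genes for M against C, 0.00611% for dcKO vehicle against wild type vehicle, 0.0550% for inhibitor against vehicle in dcKO and 0.0977% for inhibitor-treated dcKO against wild type vehicle. DESeq2's Wald test, run on the same libraries, also called none of the 9 members. At an unadjusted edgeR p under 0.05, 1 of 9 members passed for M against C (Mpp5, higher, as were 7.91% of all genes). For dcKO against wild type after vehicle 1 passed (Ocln, higher, as were 4.14%). For inhibitor against vehicle 3 passed (Cdh2, Ocln and Tjp1, all lower). There 15.8% of all genes passed in either direction, and 1309 of 16372 passed as lower. For inhibitor against wild type 3 passed (Cdh2, Crb1 and Tjp1, all lower). There 19.8% passed in either direction, and 1676 of 16372 passed as lower. Without the 4 control-level libraries, 1 member was called in each of M against C (12.4% of all genes), dcKO against wild type after vehicle (5.82%) and inhibitor against wild type (7.38%), and none for inhibitor against vehicle (1.02%). Shares of called members were near these backgrounds. In whole tissue, fewer cells of a type and less RNA per cell cannot be told apart.

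**Figure D2:**
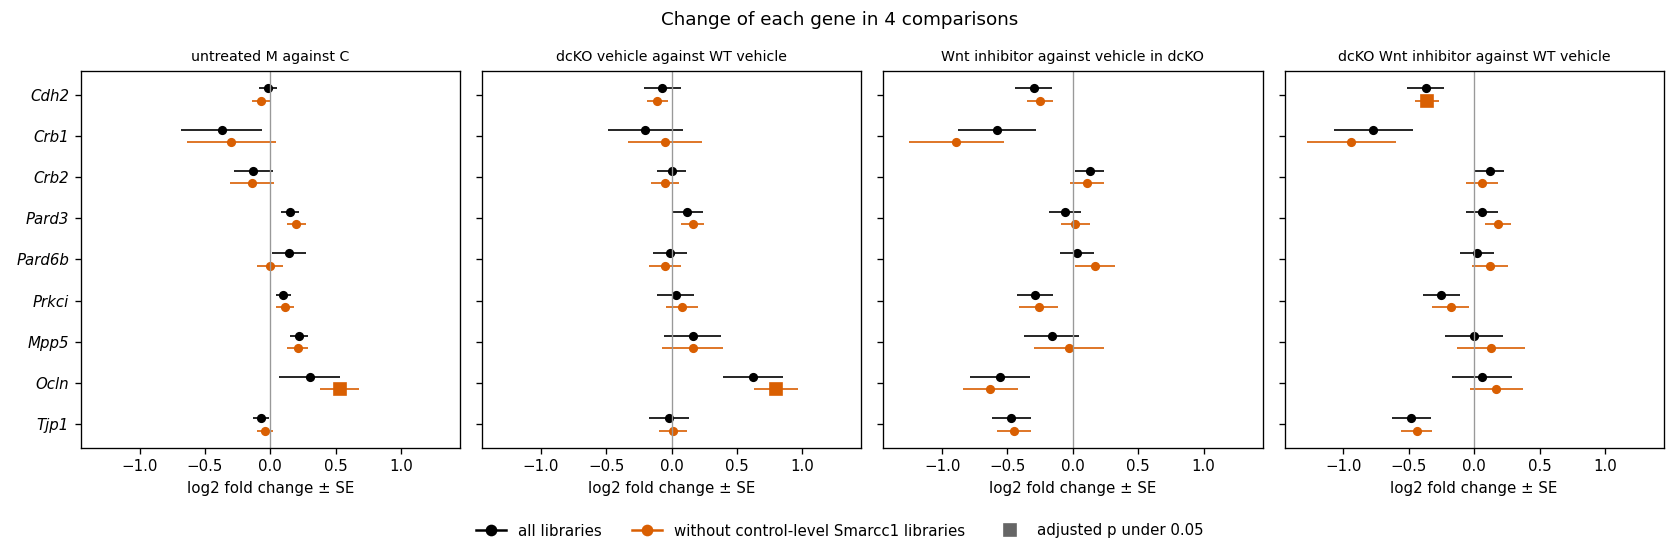
log2 fold change with its standard error for the 9 genes tested, in 4 comparisons, from edgeR. Black points use all libraries and orange points leave out the dcKO libraries with control-level Smarcc1, and larger squares mark an adjusted p under 0.05. Squares appear for Ocln in both dcKO comparisons and for Cdh2 in inhibitor against wild type, each without those libraries.

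Ocln encodes occludin, a transmembrane protein of epithelial tight junctions. The gene lies at chr13:100496507-100552718 on the minus strand (GRCm38), and H3K27me3 peaks covered its start in most ChIP libraries, as described further on. The 250 bases before its outermost start (RefSeq, GRCm38.p6, chr13:100552719-100552968, minus strand) are shown because these peaks cover them, with CG dinucleotides in capitals.

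Ocln promoter: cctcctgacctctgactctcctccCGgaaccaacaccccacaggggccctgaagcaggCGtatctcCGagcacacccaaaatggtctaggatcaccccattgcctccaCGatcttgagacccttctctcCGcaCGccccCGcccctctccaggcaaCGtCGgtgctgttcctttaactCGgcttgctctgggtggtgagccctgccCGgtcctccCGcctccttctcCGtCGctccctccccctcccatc

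The stretch held 14 CG dinucleotides. In the full 300-base window that runs to 50 bases past this start, Ocln had 17, and 31.4% of all 32851 promoter windows had as many or more, the median being 7. The motif CACCTG, searched on both strands, was found once, its first base 8 bases past the start, and 20.2% of all windows held it. CTTTGAT and CTTTGTT are letters bound by TCF/LEF factors of the Wnt pathway. Neither was in this window on either strand, against 3.7% and 5.9% of all windows. A second Ocln window (chr13:100552449-100552748) held 24 CG, and 20.0% of all windows had as many or more. It held CACCTG 2 times and neither of the other motifs.

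In the untreated experiment, C 1 to 4 had 6.77, 7.18, 5.59 and 7.998 CPM of Ocln. The library labelled M 2 had 5.04 CPM, M 3 had 9.32 and M 4 had 10.6. M 3 and M 4 lay above every C library and M 2 below every one. With all libraries the log2 fold change was 0.30 (SE 0.23) and was not called (edgeR adjusted p = 0.562). It was 0.10 without M 4, the lowest value with 1 library left out. Without the library labelled M 2, Ocln rose by a log2 fold change of 0.53 (SE 0.15, edgeR adjusted p = 0.0440). The counts behind these values ran from 60 to 262 reads.

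After vehicle, the wild type libraries had 4.14, 6.50, 4.63 and 6.59 CPM of Ocln. The dcKO libraries had 9.83 in dcKO vehicle 1, 4.94 in the library labelled dcKO vehicle 2, 9.15 in dcKO vehicle 3 and 9.88 in dcKO vehicle 4. All but the control-level library lay above every wild type value. The log2 fold change was 0.62 (SE 0.23) with all libraries (edgeR adjusted p = 0.395) and 0.80 (SE 0.17, 1.74-fold, edgeR adjusted p = 0.0224) without the 4 control-level libraries. Leaving out the library labelled dcKO vehicle 2 alone gave 0.81 (edgeR adjusted p = 0.0326), and the value with any other library left out was 0.51 to 0.73 and not called.

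**Figure D3:**
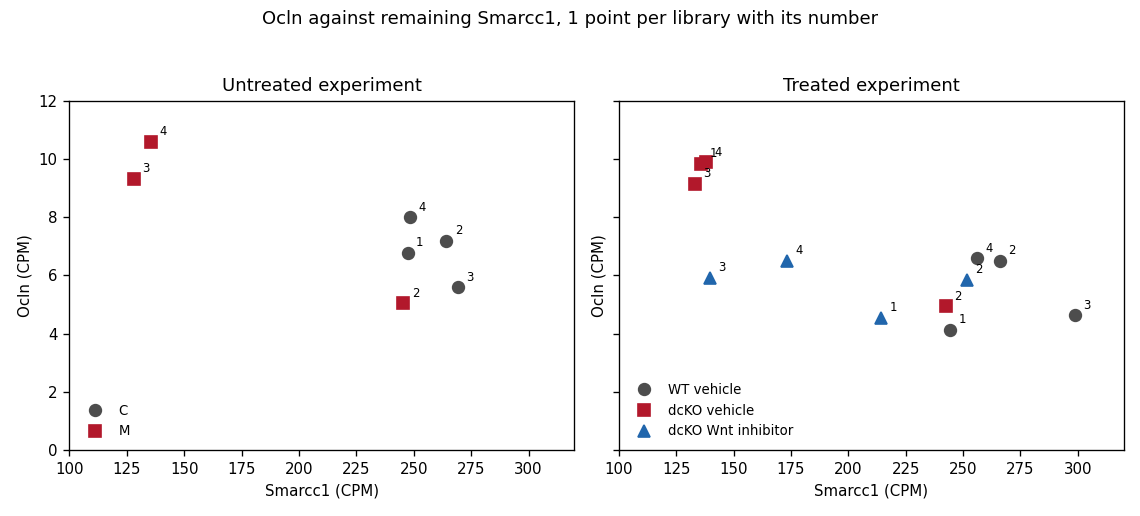
Ocln against Smarcc1, both in CPM, with 1 point per library and its number beside it, in the untreated experiment (left) and the treated experiment (right). Untreated and vehicle dcKO libraries with Smarcc1 under 140 had Ocln at 9.15 or above, the libraries labelled M 2 and dcKO vehicle 2 sat with the controls, and inhibitor 3 had Ocln of 5.93 at a Smarcc1 of 140.

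After the Wnt inhibitor, Ocln had 4.55, 5.86, 5.93 and 6.50 CPM in the 4 libraries. Inhibitor 3 and 4, the libraries of this group that are not control-level, lay below dcKO vehicle 1, 3 and 4 and among the wild type values. Against dcKO vehicle the log2 fold change was -0.56 (SE 0.23, edgeR adjusted p = 0.267), and -0.63 (SE 0.21, adjusted p = 0.155) without the control-level libraries, so the difference was not called. Against wild type vehicle it was 0.06 (SE 0.23, edgeR adjusted p = 0.911). The vehicle libraries are shared by these comparisons, so their values are not independent.

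Occludin is also made by brain endothelium and choroid plexus, and their marker lists are given beside it. The summed CPM of 8 endothelial markers was 188 to 224 in C and 162 to 188 in M, and 181 to 229 in wild type against 169 to 189 in dcKO after vehicle. The sums of M and C did not overlap there, and dcKO vehicle 1 and 3, at 187 and 189, lay above the lowest wild type library. The sum of 8 choroid plexus markers was 10.3 to 11.7 in M 3 and M 4 and 7.69 to 136 in C, and 10.5 to 12.1 in dcKO vehicle 1, 3 and 4 against 7.11 to 133 in wild type. In the inhibitor group it was 858, 166, 494 and 12.4, mostly from transthyretin (Ttr), with Ocln at 4.55 to 6.50 in the same libraries. None of these 16 markers was at 0 in all libraries of a group. Several marker sums, these 2 included, separated the same libraries as Ocln inside the dcKO groups. The endothelial sum was 188 and 173 in M 3 and M 4 against 162 in M 2. After vehicle it was 174 to 189 in dcKO vehicle 1, 3 and 4 against 169 in dcKO vehicle 2. The choroid plexus sum was 6.21 in M 2 and 7.215 in dcKO vehicle 2, below the values given above for the others. The sum of 6 meningeal fibroblast markers was 105 and 88.7 in M 3 and M 4 against 52.5 in M 2, and 86.4 to 97.0 in dcKO vehicle 1, 3 and 4 against 48.2 in dcKO vehicle 2. In controls that sum ran from 48.8 to 119. The sum of 5 microglia markers was 50.1 and 43.1 against 33.9, and 40.0 to 51.4 against 35.4, in the same libraries. The sum of 5 red blood cell markers was 248 and 236 against 216, and 225 to 249 against 221. The sum of 6 cortical neuron markers went the other way, at 4799 and 4974 against 5889, and at 4518 to 4994 against 5639. So did the sum of 8 radial glia markers, at 1381 and 1475 against 1512, and at 1360 to 1476 against 1500. The part of these cell types in the Ocln result was not tested.

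Tjp1 encodes ZO-1, which ties junction proteins to actin (chr7:65296165-65527781, minus strand). It had 107, 109, 110 and 119 CPM in C 1 to 4 and 102, 109 and 107 in M 2 to 4, which overlapped (log2 fold change -0.07, SE 0.06, edgeR adjusted p = 0.623). After vehicle, it had 81.0, 101, 102 and 101 in wild type and 95.2, 90.1, 101 and 94.8 in dcKO, with a log2 fold change of -0.02 (SE 0.15, edgeR adjusted p = 0.996). After the inhibitor, Tjp1 had 48.1, 86.3, 64.6 and 77.0 CPM. These 4 values lay below all 4 dcKO vehicle values. Tjp1 was the 1 member whose values did not overlap in that comparison, where 8.51% of all genes did not in either direction. The log2 fold change was -0.47 (SE 0.15) against dcKO vehicle (edgeR adjusted p = 0.199) and -0.48 (SE 0.15) against wild type vehicle (adjusted p = 0.128). Without all 4 control-level libraries the values were -0.45 and -0.44 (edgeR adjusted p = 0.113 and 0.0572). Without the library labelled inhibitor 2 alone, the second value became -0.61 and was called (edgeR adjusted p = 0.0257). That fit keeps inhibitor 1, which is also control-level and has the lowest Tjp1, and it called 1453 of 16621 genes.

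Cdh2, which holds the adherens junctions of radial glia together (chr18:16588877-16809246, minus strand), had 336 to 389 CPM in C and 351 to 387 in M. It had 322, 350, 331 and 330 in wild type and 307, 345, 304 and 316 in dcKO after vehicle, with log2 fold changes of -0.02 (SE 0.07) and -0.07 (SE 0.14) in the 2 experiments (edgeR adjusted p = 0.920 and 0.975). After the inhibitor it had 186, 328, 243 and 277 CPM. The library labelled inhibitor 2 lay among the wild type libraries and the others below them. Against wild type vehicle the log2 fold change was -0.37 (SE 0.14, edgeR adjusted p = 0.177). Without the control-level libraries, which leaves inhibitor 3 and 4, Cdh2 fell by 0.36 on the log2 scale (SE 0.09, edgeR adjusted p = 0.0436). Without inhibitor 2 alone, in the fit that keeps control-level inhibitor 1, it fell by 0.50 (edgeR adjusted p = 0.0261). Against dcKO vehicle it was not called, with or without these libraries (edgeR adjusted p = 0.306 and 0.212).

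The low Tjp1 and Cdh2 values of the inhibitor group were set beside the balance of long and short genes. In each library, the median log2 deviation of the genes in the lowest quartile of exon length (up to 2541 bp) was taken from that of the highest quartile (from 6551 bp). This difference was -0.44, 0.12, -0.25 and -0.12 in inhibitor 1 to 4, -0.09 to 0.24 in wild type and 0.02 to 0.13 in dcKO after vehicle. In the inhibitor group, Tjp1 and Cdh2 had the same order as this balance, lowest in inhibitor 1 and highest in inhibitor 2. In wild type, both were lowest in library 1, at the lowest balance. Among dcKO vehicle libraries, Tjp1 was 90.1 CPM at the lowest balance (library 2) and 101 at the highest (library 3). Cdh2 went the other way there, at 345 and 304 CPM in these libraries. Both belong to the long quartile, with 7811 and 8066 bp of exon. Crb1, Pard3, Mpp5 and Crb2 belong to it as well, and their log2 fold changes for inhibitor against vehicle were -0.58, -0.06, -0.16 and 0.13, while the shorter Prkci (5551 bp) had -0.29 and Ocln (4222 bp) -0.56. The part of gene length in these values was tested only by the adjustment that follows. With the trend against gene length taken out of each library, Tjp1 was -0.39 (SE 0.12) against dcKO vehicle and -0.40 (SE 0.12) against wild type (edgeR adjusted p = 0.205 and 0.142). Cdh2 was -0.28 (SE 0.11, edgeR adjusted p = 0.2204) against wild type, and without the control-level libraries it was -0.26 and no longer called (adjusted p = 0.111). For Ocln, the same adjustment without those libraries left 0.53 for M against C and 0.80 for dcKO against wild type after vehicle, both called (edgeR adjusted p = 0.0439 and 0.0189).

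**Figure D4:**
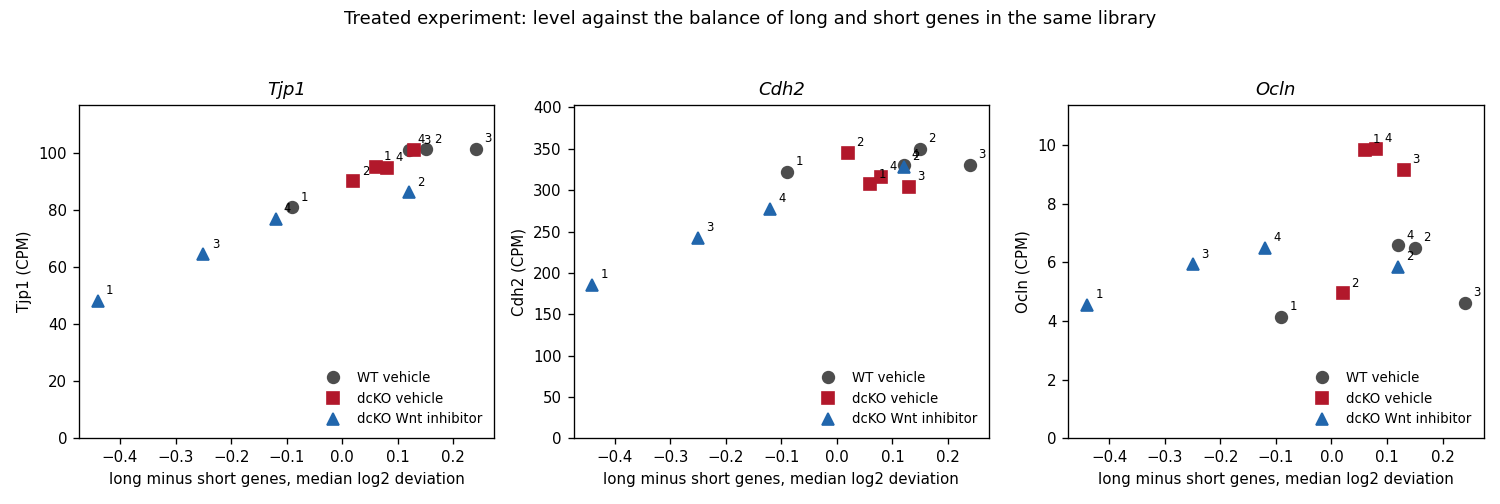
Tjp1, Cdh2 and Ocln in CPM for the 12 treated libraries, against the median log2 deviation of long genes minus that of short genes in the same library, with library numbers beside the points. Inhibitor 1 has the lowest balance (-0.44) and the lowest Tjp1 and Cdh2, and the highest Ocln values come from 3 dcKO vehicle libraries at 0.06 to 0.13.

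Cdh1, which encodes E-cadherin (chr8:106603351-106670246, plus strand), did not pass the filter on low counts. It had 0.0420 to 0.181 CPM in C, 0 to 0.121 in M, 0 to 0.155 in wild type and 0 to 0.140 in dcKO after vehicle. Inhibitor 1, 2 and 3 had 0.239, 0.230 and 0.0486 CPM, from 4, 4 and 1 reads. Inhibitor 4 had 0.797 CPM from 20 reads, the highest of the 19 libraries. It was also the inhibitor library with the lowest choroid plexus sum. With no filter, Cdh1 had a log2 fold change of 2.25 (SE 0.82) for inhibitor against vehicle and 1.89 (SE 0.81) against wild type, with unadjusted p of 0.0118 and 0.0287, and was not called (edgeR adjusted p = 0.334 and 0.350). In the dcKO comparisons without inhibitor a difference was not detectable at this depth.

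The Crumbs complex combines the transmembrane Crumbs proteins with the scaffold PALS1, encoded by Mpp5. Mpp5 (chr12:78748907-78840714, plus strand) had 31.01, 29.03, 29.85 and 29.05 CPM in C and 35.3, 35.3 and 33.6 in M, so every M library, the one labelled M 2 included, lay above every C library. It was the 1 member of 9 whose groups did not overlap in this comparison, against 13.2% of all genes in either direction. The log2 fold change was 0.22 (SE 0.07), and the unadjusted p of 0.00854 did not pass the correction (edgeR adjusted p = 0.175). Without the library labelled M 2 it was 0.21 (SE 0.08, edgeR adjusted p = 0.0990). After vehicle, Mpp5 had 15.1, 26.9, 35.6 and 23.3 CPM in wild type and 25.03, 27.6, 29.5 and 29.7 in dcKO, and the spread of the wild type group contained the dcKO group (log2 fold change 0.16, SE 0.22, edgeR adjusted p = 0.948). The inhibitor group ran from 17.6 to 29.5.

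Crb1 (chr1:139197056-139377100, minus strand), a Crumbs protein known best from photoreceptors and Müller glia, was the lowest of the tested members. It had 3.95, 4.48, 2.14 and 2.03 CPM in C, and 2.099 to 2.87 in M. It had 1.74 to 4.299 in wild type, 1.83 to 3.38 in dcKO vehicle and 1.495, 2.58, 1.26 and 1.95 in the inhibitor group, and all groups overlapped when every library was kept. Against wild type, inhibitor-treated dcKO had a log2 fold change of -0.77 (SE 0.30, edgeR adjusted p = 0.195), and -0.57 (SE 0.29) after the length trend was taken out (adjusted p = 0.331). Crb2 (chr2:37776249-37799103, plus strand), the main Crumbs protein of neural progenitors, stayed between 10.5 and 15.8 CPM in all untreated and 13.7 and 18.8 in all treated libraries. Its log2 fold changes lay between -0.13 and 0.13 in the 4 comparisons, with standard errors of 0.11 to 0.15. About 1.69% of its exon bases overlap Dennd1a on the other strand.

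The Par complex joins the scaffold Par3 (Pard3), its partner Par6 (Pard6b) and the atypical kinase aPKC iota (Prkci), and sets the apical border. Pard3 (chr8:127063893-127612286, plus strand) had 48.9, 49.3, 49.5 and 45.2 CPM in C and 49.4, 54.6 and 56.2 in M (log2 fold change 0.15, SE 0.07, edgeR adjusted p = 0.319), and without the library labelled M 2 the log2 fold change was 0.20 (SE 0.07, adjusted p = 0.0853). The library labelled M 2 lay inside the range of C and the others above it. In the treated experiment Pard3 had 46.1 to 53.3 in wild type, 47.9 to 57.0 in dcKO vehicle and 38.6 to 57.6 with the inhibitor, and these ranges overlapped. Against wild type, its log2 fold change with the inhibitor was 0.06 (SE 0.12). It was 0.42 (SE 0.10, edgeR adjusted p = 0.0379) when the length trend was taken out and the control-level libraries were left out. That fit keeps 2 inhibitor libraries. The union of Pard3 exons is 14506 bp, the longest of the 10.

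Pard6b (chr2:168081004-168101203, plus strand) had 10.5 to 11.1 CPM in C, 10.4 to 14.5 in M and 9.21 to 13.6 over all treated libraries, with log2 fold changes of -0.01 to 0.14. The highest of these M values belonged to the library labelled M 2. Prkci (chr3:30995747-31052959, plus strand) had 84.8 to 97.1 CPM in C and 94.0 to 96.4 in M. It had 64.0 to 94.5 in wild type, 71.0 to 86.7 in dcKO vehicle and 49.8, 73.4, 70.4 and 66.5 after the inhibitor. The log2 fold change against dcKO vehicle was -0.29 (SE 0.14, edgeR adjusted p = 0.327), and the lowest value was again that of inhibitor 1.

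The dcKO effect in the untreated experiment minus that after vehicle was tested directly. For none of the 9 members was it called (0% of 16156 genes, with 0.354 for Ocln as the lowest unadjusted p of a member), and 0 members passed an unadjusted edgeR p under 0.05, against 0.501% of all genes. DESeq2 called 0 genes as well. Without the control-level libraries 0 genes were called. For Ocln the difference was -0.33 (SE 0.35) on the log2 scale. The fit treats all libraries as independent, although libraries with the same number deviated together between the experiments, so these p-values do not show that the effects were alike or different.

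No member's values separated wild type from dcKO after vehicle when all libraries were used, where 5.66% of all genes did, and none separated the inhibitor group from wild type, where 7.49% did. Without the control-level libraries, and so with smaller groups, more members separated, and so did many more genes. Pard3, Mpp5 and Ocln were then higher in both M libraries than in every C library, and 37.3% of all genes were apart in either direction. After vehicle, Ocln was apart (higher in dcKO) and Cdh2 (lower), against 18.4% of all genes. Between inhibitor and vehicle, 5 of 9 members were apart and lower (Cdh2, Crb1, Prkci, Ocln and Tjp1). Of all genes, 47.7% were apart in either direction, and the share that was lower was not counted. Between inhibitor and wild type, Pard3 (higher), Cdh2 and Tjp1 (both lower) were apart, against 28.2%. The median log2 fold change of the 9 members was 0.10 for M against C, 0.00 for dcKO against wild type after vehicle, -0.29 for inhibitor against vehicle and 0.00 for inhibitor against wild type. The medians over all genes tested were 0.00, 0.00, 0.01 and 0.01.

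Other genes of the pathway were read from lists chosen with earlier results known. Of 15 further polarity genes, 18 further adherens junction genes and 17 or 18 tested of 22 further tight junction genes, 0 were called in any comparison with all libraries (edgeR adjusted p). At an unadjusted p under 0.05, M against C had 2 higher and 1 lower polarity genes, 3 and 3 adherens junction genes, and 3 and 2 tight junction genes, where 7.91% of all genes were higher and 8.14% lower. In the other 3 comparisons, 1 to 3 of the polarity genes, 1 to 4 of the adherens junction genes and 2 to 4 of the tight junction genes passed that limit. After vehicle 4.14% of all genes were higher and 5.33% lower in dcKO at that limit. For inhibitor against vehicle and against wild type, 15.8% and 19.8% of all genes passed in either direction. DESeq2 called 1 polarity gene and 2 tight junction genes for M against C, 1 tight junction gene for inhibitor against vehicle and 0 otherwise, against 3.67%, 0.733%, 2.07% and 4.78% of all genes in the 4 comparisons. List medians for M against C lay at 0.02, -0.05 and -0.03, beside 0.00 for all genes.

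Fits without the control-level libraries called 12.4% of all genes for M against C, 5.82% after vehicle and 7.38% for inhibitor against wild type. These shares stand beside the calls in this and the next 2 paragraphs. In these fits the inhibitor group keeps 2 libraries. Without the library labelled M 2, which leaves 2 M libraries, 3 polarity genes were higher and 1 lower in M. Patj, which binds PALS1 in the Crumbs complex, rose by 0.61 (SE 0.12), from 12.7 to 16.7 CPM in C to 16.1 to 24.0 over all 3 M libraries. Pard3b rose by 0.49 (SE 0.11), and Dlg1, a basolateral scaffold, rose by 0.31 (SE 0.06). Epb41l5, which limits Crumbs activity, fell by 0.43 (SE 0.09). These 4 passed the edgeR test with adjusted p = 0.00776, 0.0173, 0.00661 and 0.0119. After vehicle, without the control-level libraries, Patj and Pard3b were called as well, higher by 0.71 (SE 0.10) and 0.54 (SE 0.13) (edgeR adjusted p = 0.00242 and 0.0349). Patj remained higher in inhibitor-treated dcKO than in wild type, by 0.65 (SE 0.11, edgeR adjusted p = 0.00999).

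Among adherens junction genes without the library labelled M 2, the catenins Ctnna1 and Ctnnb1 rose by 0.24 (SE 0.06) and 0.29 (SE 0.08) in M, Vcl (vinculin) rose by 0.46 (SE 0.11), and Nectin3 fell by 0.57 (SE 0.09), with edgeR adjusted p = 0.0329, 0.0317, 0.0205 and 0.00200. After vehicle none of the 18 was called without the control-level libraries, and 7 of 18 passed an unadjusted p under 0.05, against 16.8% of all genes. In inhibitor-treated dcKO against wild type, Cdh4 (R-cadherin) was the 1 call and fell by 0.53 (SE 0.13, edgeR adjusted p = 0.0396). Among tight junction genes, Jam2, Tjp3 and Jam3 rose by 0.50, 0.59 and 0.26 in M and Cldn3 fell by 1.44 (SE 0.25), all past the edgeR adjusted threshold without the library labelled M 2. Cldn3, a claudin of epithelia and brain endothelium, was also lower in dcKO after vehicle, where it fell by 1.52 (SE 0.17, edgeR adjusted p = 0.000667), as was Cldn10, which fell by 1.54 (SE 0.30, adjusted p = 0.0144), and Cldn3 stayed lower by 0.97 in inhibitor-treated dcKO than in wild type (edgeR adjusted p = 0.0157). Cldn3 had 1.09 to 3.32 CPM in the untreated libraries. Of 8 endothelial markers, Flt1 alone was called in the same fits. It fell by 0.56 in M (SE 0.11, edgeR adjusted p = 0.00747), and its part in the claudin result was not tested.

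Ocln, Mpp5 and Tjp1 also stand in lists of tight and adherens junction genes drawn up with these libraries by the study's authors. Those lists are therefore not independent evidence of a direction. The paper reports the first list as upregulated and the second as downregulated in dcKO pallium. Its alpha-Catenin and filamin carry no gene symbol and were read as Ctnna1 and filamin A. With all libraries, edgeR called 0 of the 8 tight and 0 of the 14 adherens junction genes. At an unadjusted edgeR p under 0.05, 7 of the 8 tight junction genes were higher in M. Of the 14 adherens junction genes, 11 were lower and 1 higher. Over all genes, 7.91% were higher and 8.14% lower in M at that unadjusted limit. DESeq2 called 3 of the 8 and 6 of the 14, against 3.67% of all genes. Without the library labelled M 2, 7 of the 8 were higher in M by the adjusted test. Of the 14, 7 were lower and 1 was higher (Ctnna1, by 0.24). Amot (angiomotin, a junction scaffold of the Hippo pathway) had 49.3 to 52.0 CPM in C, 47.1 in the lowest and 99.9 in the highest M library, and rose by 0.96 (SE 0.06, edgeR adjusted p = 5.59e-06). Tgfb3, a secreted growth factor, rose as well (edgeR adjusted p = 0.000553), as did Pkd2, a cation channel, by 0.38 (SE 0.08). Ptk2b, a focal adhesion kinase, fell by 1.31 (SE 0.24, adjusted p = 0.00923), and Myo1e, Plec, Itga1 and Tns3 fell by 0.67, 0.61, 0.60 and 0.46. After vehicle, 5 of 8 were called higher (Ocln, Patj, Tgfb3, Amot and the chloride channel Cftr, the last 3 by 1.04, 0.92 and 2.06), and 3 of 14 were called lower (Ptk2b, Myo1e and Jcad, which fell by 1.26, 0.82 and 0.63), all without the control-level libraries. With the inhibitor, against dcKO vehicle, 0 were called with or without those libraries, and 2 of the 8 were lower at an unadjusted p under 0.05. Against wild type, without those libraries, 2 of the 8 were called higher (Tgfb3 by 1.01 and Patj by 0.65) and 2 of the 14 lower (Jcad and Apc, which fell by 0.76 and 0.60).

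H3K27me3, the mark left by Polycomb repressive complex 2, was read as peaks that the authors called in each of the 8 ChIP libraries against input of the same letter. A member was counted where a peak came within 2000 bp of a start of a protein-coding transcript. Cdh1 had such a peak in 7 of 8 libraries (4 C and 3 K) and Ocln in 7 (3 C and 4 K), whereas 6.0% of 21976 genes had one in at least 7. Pard3, which has 9 such starts and so more windows than any other member, had one in 5 libraries. Crb2, Pard6b and Mpp5 had one in 2 each and Tjp1 in 1. Cdh2, Crb1 and Prkci had none. Over all genes, 24.5% had one in at least 2 libraries and 38.4% in at least 1, so most had none.

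At Ocln, the highest peak near the start was enriched 13.2-fold over input in C 1, 5.19-fold in C 2 and 5.11-fold in C 4, with no peak in C 3. In K 1 to K 4 it was 17.4-fold, 4.39-fold, 5.56-fold and 13.4-fold. In K 2 this peak lay 1848 bp from the start, and a weaker one of 3.67-fold lay 20 bp away. Fold enrichments of C and K overlapped. At Cdh1, the peaks were enriched 15.6-, 6.10-, 4.04- and 5.37-fold in C 1 to 4, and 11.3-, 5.44- and 10.3-fold in K 1, K 3 and K 4. Both letters overlapped there too. Pard3 peaks were weaker, from 3.19- to 6.50-fold.

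The libraries differed in ways that move with these values. Tags kept after removal of duplicates ran from 2420911 to 28335352 and the number of peaks from 6674 to 46000. C 3 and K 2, which each missed 1 of the 2 peaks, had starts of 6.5% and 5.3% of all genes under a peak, the lowest of the 8. C 2, C 4 and K 3, with the most tags kept (61.5% to 66.5% of all), had peaks of 4281 to 5593 bp at Ocln and enrichments of 5.11 to 5.56, and C 1 and K 1 had narrower peaks of 1660 and 1554 bp. K 4, with 32.8% of tags kept, had a wide peak of 4854 bp at 13.4-fold. Their part in the differences between libraries was not tested. With a stricter q-value of 0.01, Ocln and Cdh1 kept their peaks in 7 libraries each and Pard3 in 3. Crb2 and Pard6b kept theirs in 1 each, and Mpp5 and Tjp1 in none. The share of all genes at this q-value was not computed.

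**Figure D5:**
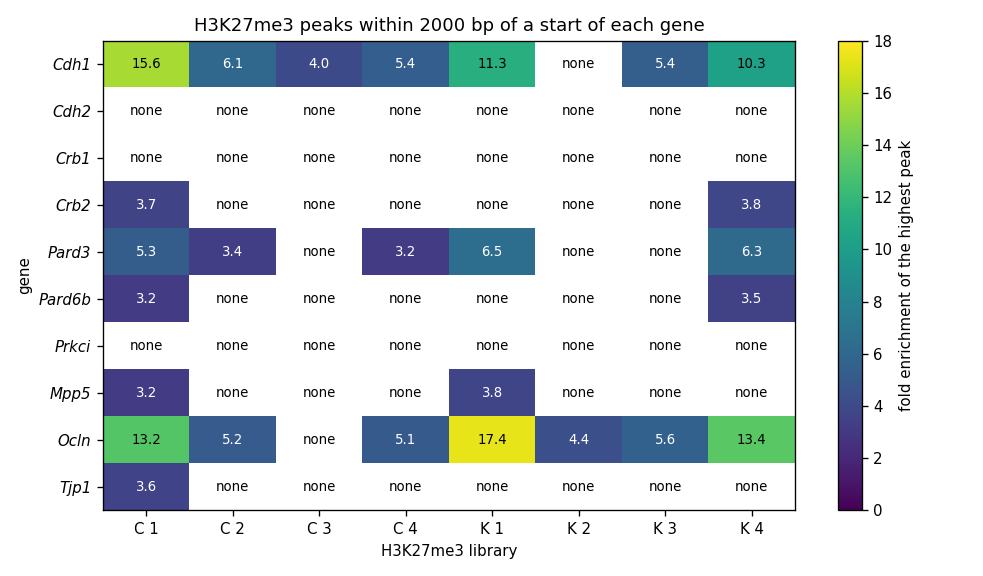
Fold enrichment over input of the highest H3K27me3 peak within 2000 bp of a start of each gene, for 4 C and 4 K libraries; white cells marked none have no peak. Cdh1 and Ocln have peaks in 7 of 8 libraries and reach 15.6 and 17.4, and no cell of Cdh2, Crb1 or Prkci is filled.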

How the data were processed

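RNA was profiled in 7 untreated and 12 treated E17.5 cortex libraries and H3K27me3 in 8. Per the study's methods, the authors aligned RNA reads with STAR and deposited raw read counts per gene from featureCounts. The annotation and strand setting are not given in the sources used here, and the kit named in the labels does not mark strand. The 5 closing summary rows of the untreated tables held 0 counts and were removed. For H3K27me3 the authors deposited MACS2 broad peaks on mm10, 1 file per library, with a fold enrichment ratio over input and a −log10 q-value per peak, keeping 1 tag per position. Input libraries entered only through these peaks. Positions come from GENCODE M21 on GRCm38, the same assembly.

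Counts were scaled by TMM and shown as CPM. edgeR 4.0.16 (quasi-likelihood, robust, filterByExpr) was fitted per experiment, with Benjamini-Hochberg adjustment over 15770 untreated and 16372 treated genes and calls at 0.05. The scripts were tested on simulated data. Alternatives were DESeq2 1.42.0, its size factors, no filter, the replicate block, 2-group fits, an unadjusted p of 0.01, each library left out and, chosen after the data were examined, the 4 control-level libraries left out and a lowess trend on exon length removed. The named genes are the 10 members, Smarcc1 and Smarcc2, up to 5 called genes per pathway list, comparison and direction, and the most abundant marker of each cell type list. Pathway genes are named from the edgeR fits without control-level libraries, since edgeR called 0 with all libraries. DESeq2 calls of pathway genes were only counted. Ocln, Tjp1 and Cdh2 were followed in most detail after their values were seen. Members and lists were chosen with earlier results of these data known. Promoter windows of 7 members were matched in the RefSeq table by symbol. Results for 1 marker gene are not reported here.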

Additional observations from a re-analysis of the deposited data

Results flagged for a closer look

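In 40 sets of 4 libraries (10 members in 4 groups), 3 held a library whose gap to its neighbor was unusually large against the range of the set (Dixon's test at the 95% level), and chance alone gives about 1 in 20. Ocln in the library labelled dcKO vehicle 2 was 4.94 CPM while the others had 9.15 to 9.88. This library also had control-level Smarcc1 (242 CPM against 133 to 138 in the others of its group). Tjp1 in wild type vehicle 1 was 81.0 CPM against 101 to 102 in the others, and the balance of long and short genes was -0.09 in this library and 0.12 to 0.24 in them. Pard3 in C 4 was 45.2 CPM against 48.9 to 49.5 in the others.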

How the results depend on the processing

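Over all genes, the number called moved strongly with the setting. For M against C (1 called) it was 154 without a filter, 578 with DESeq2, 0 with the replicate block, 861 at an unadjusted p under 0.01, 1994 without the control-level library and 2051 when the length trend was also removed. For dcKO against wild type after vehicle (1 called) it was 0 with DESeq2's size factors, without a filter, in the 2-group fit and with the length trend removed, 120 with DESeq2, 5 with the replicate block, 467 at the unadjusted p, 978 without control-level libraries and 1038 with both changes. For inhibitor against vehicle (9 called) it was 20 without a filter, 339 with DESeq2, 761 at the unadjusted p, 172 without control-level libraries and 117 with both changes. For inhibitor against wild type (16 called) it was 58 without a filter, 783 with DESeq2, 189 with the replicate block, 8 in the 2-group fit, 1241 without control-level libraries, 903 with both changes and 1100 at the unadjusted p. For the difference between the experiments (0 called) it was 16 at the unadjusted p. With 1 library left out in turn, these 5 counts ran from 0 to 1994, 0 to 562, 0 to 420, 0 to 1453 and 0 to 0, and the highest came without M 2, dcKO vehicle 2 and, in both inhibitor comparisons, inhibitor 2. Leaving out dcKO vehicle 2 gave 180 and 129 in the inhibitor comparisons, wild type vehicle 1 gave 187 in the second, and most other single libraries lowered these counts to between 0 and 3. The cause was not tested.

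The number of members called (0 in each comparison) became 1 without control-level libraries, and with the length trend also removed, for M against C, dcKO against wild type and inhibitor against wild type. At the unadjusted p under 0.01 it was 1 for M against C (Mpp5) and for each inhibitor comparison (Tjp1). With 1 library left out it ran from 0 to 1 in both dcKO comparisons, 0 to 0 for inhibitor against vehicle, 0 to 2 for inhibitor against wild type and 0 to 0 for the difference.

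Directions that turned belonged to log2 fold changes that were not called with all libraries. Without control-level libraries, Tjp1 in dcKO against wild type became 0.01 and Pard3 in inhibitor against vehicle 0.02. With the length trend removed, Pard3 became 0.13 and Pard6b -0.01 in inhibitor against vehicle, and Pard6b -0.04 against wild type. With both changes, Pard6b in M against C became -0.01, Tjp1 in dcKO against wild type 0.02, and Pard3 and Mpp5 in inhibitor against vehicle 0.24 and 0.08. With 1 library left out, Cdh2 in M against C ran from -0.07 to 0.01. In dcKO against wild type, Crb1 ran from -0.41 to 0.01, Pard6b from -0.06 to 0.04, Prkci from -0.05 to 0.14, Mpp5 from -0.02 to 0.36 and Tjp1 from -0.09 to 0.01. In inhibitor against vehicle, Pard3 ran from -0.12 to 0.05 and Pard6b from -0.07 to 0.12, and against wild type Pard6b ran from -0.07 to 0.10 and Ocln from -0.06 to 0.16. For the difference, Crb1 ran from -0.39 to 0.03, Pard3 from -0.03 to 0.08, Prkci from -0.05 to 0.15, Mpp5 from -0.15 to 0.24 and Tjp1 from -0.09 to 0.02.

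The replicate block called 0 members. Same-numbered libraries of different groups correlated at -0.35 to -0.041 in 3 untreated pairs and at -0.207 to 0.463 in 12 treated pairs (mean 0.117, against -0.036 for other numbers; the 3 pairs numbered 1 had 0.118 to 0.463). Not every pair passed 0.1, the limit set for a pairing, so the block was kept as an alternative. Depth limits Cdh1 (0 to 20 reads) and Crb1 (25 to 101 reads).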

Other observations

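Among 8 lists of cell type markers, 1 gene was called with all libraries (edgeR adjusted p under 0.05), while DESeq2 called more. For inhibitor against vehicle it called 6 choroid plexus genes higher. Against wild type it called 1 choroid plexus, 1 radial glia and 2 red blood cell genes higher and 2 endothelial genes lower. For M against C it called 2 radial glia genes higher and 1 endothelial gene lower, and after vehicle 1 endothelial gene lower in dcKO. Otx2, a transcription factor of choroid plexus, had 5.17 to 7.89 CPM in the inhibitor group and 1.65 to 2.36 in wild type vehicle, a log2 fold change of 1.64 (SE 0.26, edgeR adjusted p = 0.0464), and this includes inhibitor 4, whose choroid plexus sum was 12.4 CPM. Without control-level libraries, Otx2 and markers that included Flt1, Pdgfra, Hes5, Fabp7, Sox2, Pax6, Nes, Neurod6, C1qb and Cx3cr1 were called in at least 1 comparison, and edgeR called 0 of the red blood cell and ependyma markers. In M against C without the library labelled M 2, the radial glia genes Hes5, Fabp7, Sox2 and Pax6 rose by 0.71, 0.27, 0.35 and 0.51 and Nes fell by 1.20, while Neurod6, a gene of pyramidal neurons, fell by 1.24.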
